A study of Danio rerio with 18 samples.

Results

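Whole zebrafish embryos exposed to gold nanoparticles with a negatively charged MES surface were set against vehicle controls at 24 hours post fertilization (hpf), 6 of the 18 arrays in the series. The 6 arrays were chosen by their labels alone, 3 per group, and read through the tables deposited for each array. MES is mercaptoethanesulfonate, an anionic thiol ligand, here on a 1.5 nm gold core. The exposed embryos were kept in 50 µg/mL of these particles from 6 hpf, and the controls in vehicle without particles. All groups, controls included, had been dechorionated at 4 hpf, and each array measured total RNA from a pool of 40 embryos at a labelled temperature of 37 °C. Neither a strain nor the origin of the pools in separate clutches is given in the sources used here, so p-values measure spread between pools only. For features that spread comes from all 18 arrays of the series, at both ages and with both particles. The fit treats it as equal in all groups. In such pools a smaller number of cells of a type and less RNA per cell cannot be told apart. The 3 arrays of TMAT particles at 24 hpf (10 µg/mL, a cationic trimethylammoniumethanethiol surface on the same core size) and the MES and control arrays at 48 hpf are used beside them.

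At 24 hpf a zebrafish embryo has formed its somites, its heart has begun to beat, pigment is appearing, and neurons are extending axons through an organised brain and spinal cord. Metals and oxidants act on vertebrate cells through known routes. Metal ions induce metallothioneins and shift iron and zinc transport, and oxidants induce glutathione and haem oxygenase genes through Nrf2. Damaged protein induces chaperones, and foreign particles can engage macrophages and inflammatory cytokines. Lists of genes for these routes and for the tissues of the embryo were compared between the groups. The lists and their members were chosen with earlier results of these data known. Their counts and medians below describe these arrays and are not tests.

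Each array gave an intensity for 37105 features, each the summary of a median of 8 probes, and values below are log2 intensities, on which a difference of 1 is a 2-fold difference. The median intensity of an array was 1809 to 2028 in controls and 1963 to 2071 with MES particles (exact permutation test, two-sided, p = 0.5, where 0.1 is the smallest p that 3 against 3 allows). A feature of random probes, which gauges background, read 84.4 to 126 in controls and 91.7 to 93.8 with MES particles (the same exact permutation test, p = 0.7). A current gene symbol was available for 2659 of the features. Of 113 symbols listed as defining markers of embryonic tissues, 19 were measured, and all 19 lay above the random feature in controls, among them markers of skeletal muscle, heart, red blood cells, lens, pigment cells and ionocytes. None of the listed markers of neurons, notochord, hatching gland, epidermis, germ cells or the yolk syncytial layer was measured.

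Control array 1 stood apart from the rest. Its Pearson correlation across features with the other 24 hpf arrays was 0.853 to 0.935, whereas control arrays 2 and 3 correlated at 0.968 with each other. Control array 3 correlated at 0.984 to 0.985 with MES arrays 1 and 2. Within the MES group arrays 1 and 2 correlated at 0.989, and array 3 reached 0.963 to 0.965 with them but 0.989 with TMAT array 2. These are correlations over features of the same arrays and describe likeness only. Control array 1 was the highest or the lowest of the 6 arrays for 72.7% of features, against 13.7% for control array 3 and 21.3% for MES array 3. The first principal component of the 6 arrays held 66.7% of the variance, with control array 1 at -171 and the other arrays between -14.1 and 67.4. The median standard deviation of a feature was 0.481 among controls and 0.254 among MES arrays. It was larger among controls for 75.4% of features, and for 45.3% once control array 1 was left out. The latter sets 2 control arrays against 3 MES arrays, so it does not show which group spread less. Of 79 of the genes named below, 46 had a difference that moved by over 1.5 times when this array was left out and 6 changed sign, against 8 to 13 moved and 0 changed in sign when any other of the 6 arrays was left out. The value without control array 1 is given beside each gene that it moved by over 1.5 times.

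**Figure D1:**
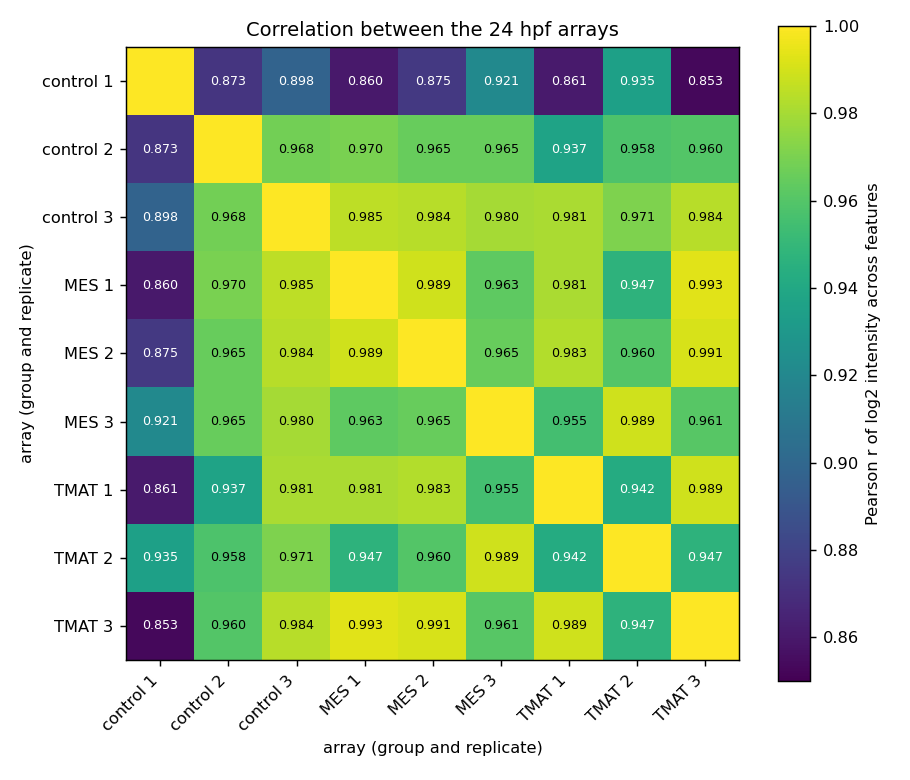
Pearson correlation of log2 intensity across features for each pair of the 9 arrays at 24 hpf, by group and replicate (colour scale and printed values). Control array 1 correlated at 0.853 to 0.935 with the others, and MES array 3 was nearer to TMAT array 2 (0.989) than to MES arrays 1 and 2 (0.963 and 0.965).

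No feature passed an adjusted p of 0.05 between MES particles and controls at 24 hpf (0% of 37105 called, limma with Benjamini-Hochberg adjustment over all features, smallest adjusted p = 0.787). An unadjusted p below 0.05 was reached by 1459 features, 3.93% of those tested, with 406 higher (1.09%) and 1053 lower (2.84%) with MES particles. The ordinary statistic, without limma's shared variance, also called 0 and gave 1409 at the unadjusted level. A limma fit on only the 6 arrays compared called 0 and gave 695 at that level. The same on the 9 arrays at 24 hpf called 0 and gave 996. The median difference was -0.0825, 58.5% of differences were negative, and the median size of a difference was 0.279 against a median standard error of 0.327. The 95% interval of a typical feature, not adjusted for the number of features, reached 0.694 to either side. Differences under about that size were therefore not resolved with 3 arrays per group even before adjustment. After adjustment larger ones were not called either, out to the extremes of -2.09 and 2.71 over all features. Differences beyond 1 log2 unit were mostly upward, at 1018 higher and 88 lower features. The 3 and 3 values did not overlap for 617 features that were higher (1.66% of those tested) and 2164 that were lower (5.83%).

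The balance of lower over higher values moved with brightness. In the dimmest decile of features the median difference was -0.254 and 82.1% were lower with MES particles. In the brightest decile the median was 0.0261 and 44.5% were lower. Control array 1 deviated from the mean of the 24 hpf arrays by a median of 0.301 in the dimmest decile and 0.476 in the next, and by 0.0337 in the brightest. In the dimmest decile MES arrays 1, 2 and 3 lay below that mean, at -0.107, -0.116 and -0.0689, and so did control array 3, at -0.0573. Control array 2 lay above it, at 0.171. What part this deviation has in the lower values of dim genes was not tested.

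**Figure D2:**
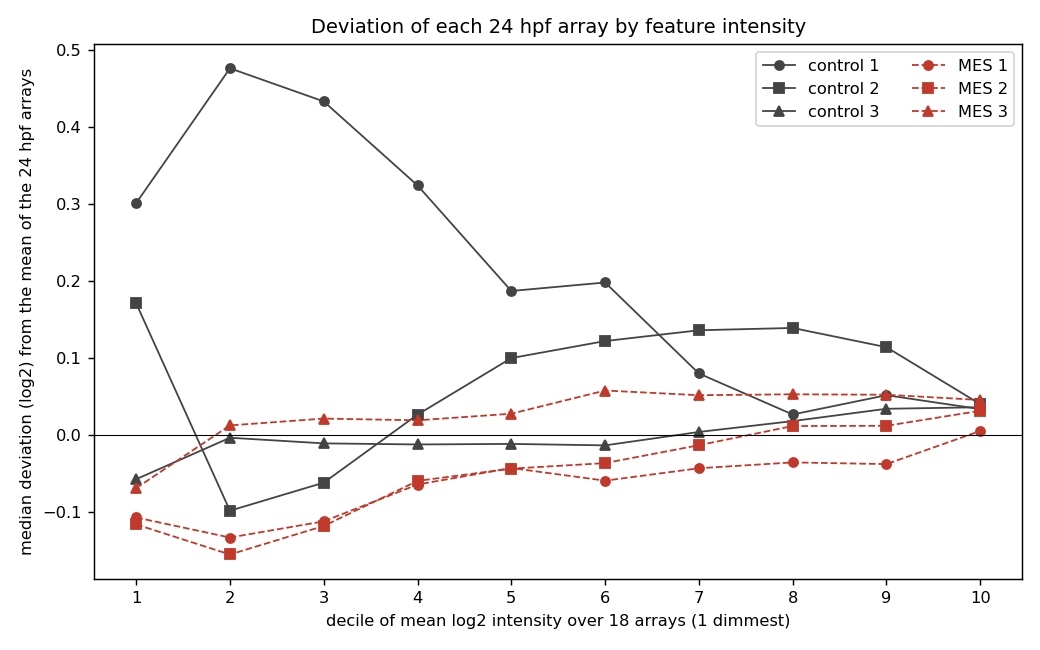
Median deviation (log2) of each control and MES array from the mean of the 24 hpf arrays, by decile of feature brightness (1 dimmest, each about 3710 features). Control array 1 lies up to 0.476 above the mean among dim features and all 6 arrays come together in the brightest decile.

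Since no gene passed the test, the 12 named genes with the smallest unadjusted p in each direction are described, and every one had an adjusted p of 0.787. Genes with higher values under MES particles included regulators of muscle and craniofacial development, a clock gene and a melanosome gene. Neurexin 3b (nrxn3b, NM_001080047), a presynaptic adhesion molecule, had the smallest p among them. Its log2 intensities were 8.76, 9.32 and 9.78 in controls and 9.97, 10.06 and 10.25 with MES particles, so the groups did not overlap. The difference was 0.81 ± 0.25 (standard error of the limma fit, n = 3 per group), or 0.55 without control array 1. Every ± given for a gene is of this kind, with limma's shared variance and a spread pooled over all groups of the series. It is not the spread of the controls and MES arrays alone. For genes on which control array 1 stood apart it can be smaller than that spread would give.

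The myogenic transcription factor mef2ca read 10.77, 11.60 and 11.41 in controls and 12.76, 12.77 and 11.58 with MES particles, a difference of 1.11 ± 0.42. MES array 3 lay within the control range and MES arrays 1 and 2 above it. The TEAD cofactor vgll2a, a gene of muscle and pharyngeal arches, read 7.95, 8.45 and 8.26 in controls and 9.40, 9.21 and 8.72 with MES particles. Its groups did not overlap and differed by 0.89 ± 0.34, or 0.75 without control array 1. The Hippo pathway coactivator wwtr1 (Taz) read 8.75, 9.43 and 9.45 in controls against 11.41, 11.56 and 9.38 with MES particles. MES arrays 1 and 2 lay above every control and array 3 did not, and the difference of 1.58 ± 0.67 was 2.28 without array 3. The deubiquitinase gene usp9 had the same arrangement, with 10.47, 11.59 and 12.17 in controls and 14.02, 13.99 and 11.75 with MES particles (1.84 ± 0.72). The Integrator subunit gene ints2, whose complex processes small nuclear RNAs, differed by 1.06 ± 0.35, again with MES array 3 (8.0) inside the control range of 7.22 to 8.05.

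The melanosome fibril gene pmela had the widest difference among these 12, 2.26 ± 0.90, with control array 1 at 6.49, control array 3 at 10.87 and the other control between them, and 11.19, 11.19 and 12.06 with MES particles. The groups did not overlap, but the feature held only 3 probes and the difference was 0.89 without control array 1. The G protein subunit gene gnb4b (0.99 ± 0.42) and the junctophilin gene jph2 (0.86 ± 0.36), which joins membranes in muscle cells, also narrowed without control array 1, to 0.41 and 0.30. By contrast ggact.1, a gamma-glutamylamine cyclotransferase gene, read 8.33, 8.46 and 8.45 in controls and 8.83, 9.12 and 9.42 with MES particles. Its groups did not overlap and its difference of 0.71 ± 0.30 was 0.67 without control array 1. The lysophospholipase gene pnpla7a differed by 0.77 ± 0.33 and by 0.78 without that array, with controls at 10.48 to 10.53 and MES array 3 at 10.55.

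Among the 12 higher genes the values did not overlap for 7, control array 1 was the lowest control for 11, and MES array 3 was the lowest MES array for 9. Without control array 1 the unadjusted p stayed below 0.05 for 2 of them, nrxn3b and ints2. The genes were chosen by the p of this same comparison, so these counts follow in part from the choice. Over all 37105 features 1.66% were higher without overlap. Without control array 1, 497 features had an unadjusted p below 0.05 in either direction.

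Genes with lower values under MES particles were dim, with a median log2 intensity of 8.40 against 10.49 for the 12 higher genes. The reprimo-like gene rprml (NM_001098771) had the smallest p of all 24, with 7.50, 7.92 and 7.13 in controls and 6.79, 6.55 and 6.55 with MES particles. The groups did not overlap, and the difference of -0.89 ± 0.23 was -0.90 without control array 1. The elastin gene elnb, which encodes an elastic fibre protein of the outflow tract and vessels, read 9.38, 9.21 and 8.47 in controls and 7.92, 8.12 and 8.36 with MES particles (-0.89 ± 0.24). It too did not overlap, and differed by -0.71 without control array 1.

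Stanniocalcin 1 (stc1), a hormone that restrains calcium uptake in fish, read 8.54, 8.33 and 8.18 in controls and 7.73, 7.29 and 7.82 with MES particles, a difference of -0.73 ± 0.25 with no overlap. The slow-muscle thick filament gene mybpc1 read 9.83, 9.72 and 9.16 against 8.95, 8.72 and 8.96 (-0.69 ± 0.22). The autophagosome gene map1lc3c read 10.23, 9.25 and 9.36 in controls and 8.76, 8.67 and 8.65 with MES particles (-0.92 ± 0.28). All 3 genes kept every MES value below every control value, and without control array 1 their differences were -0.64, -0.56 and -0.61.

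The complex I subunit gene ndufs8b (-0.87 ± 0.28), the interleukin 15 receptor gene il15ra (-0.97 ± 0.34) and the fatty acid elongase gene elovl8a (-0.82 ± 0.29) each had control array 1 well above the other controls, at 9.67, 9.41 and 10.41. Without it they differed by -0.46, -0.59 and -0.50. The opioid precursor gene pdyn (-0.76 ± 0.26), the stomatin-like gene stoml3a (-0.63 ± 0.20) and the fucosyltransferase gene fut9b.3 (-0.70 ± 0.23) also did not overlap. The sialidase gene neu4 (-0.77 ± 0.26) did, since MES array 3 at 8.42 lay above control array 2 at 8.37. Among the 12 lower genes 11 did not overlap, and control array 1 was the highest control for 11. Without that array 9 kept an unadjusted p below 0.05, with differences over the 12 from -0.90 to -0.46. As for the higher genes, the choice by p in part fixes these counts, and they are no support for single genes. Over all features 5.83% were lower without overlap.

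**Figure D3:**
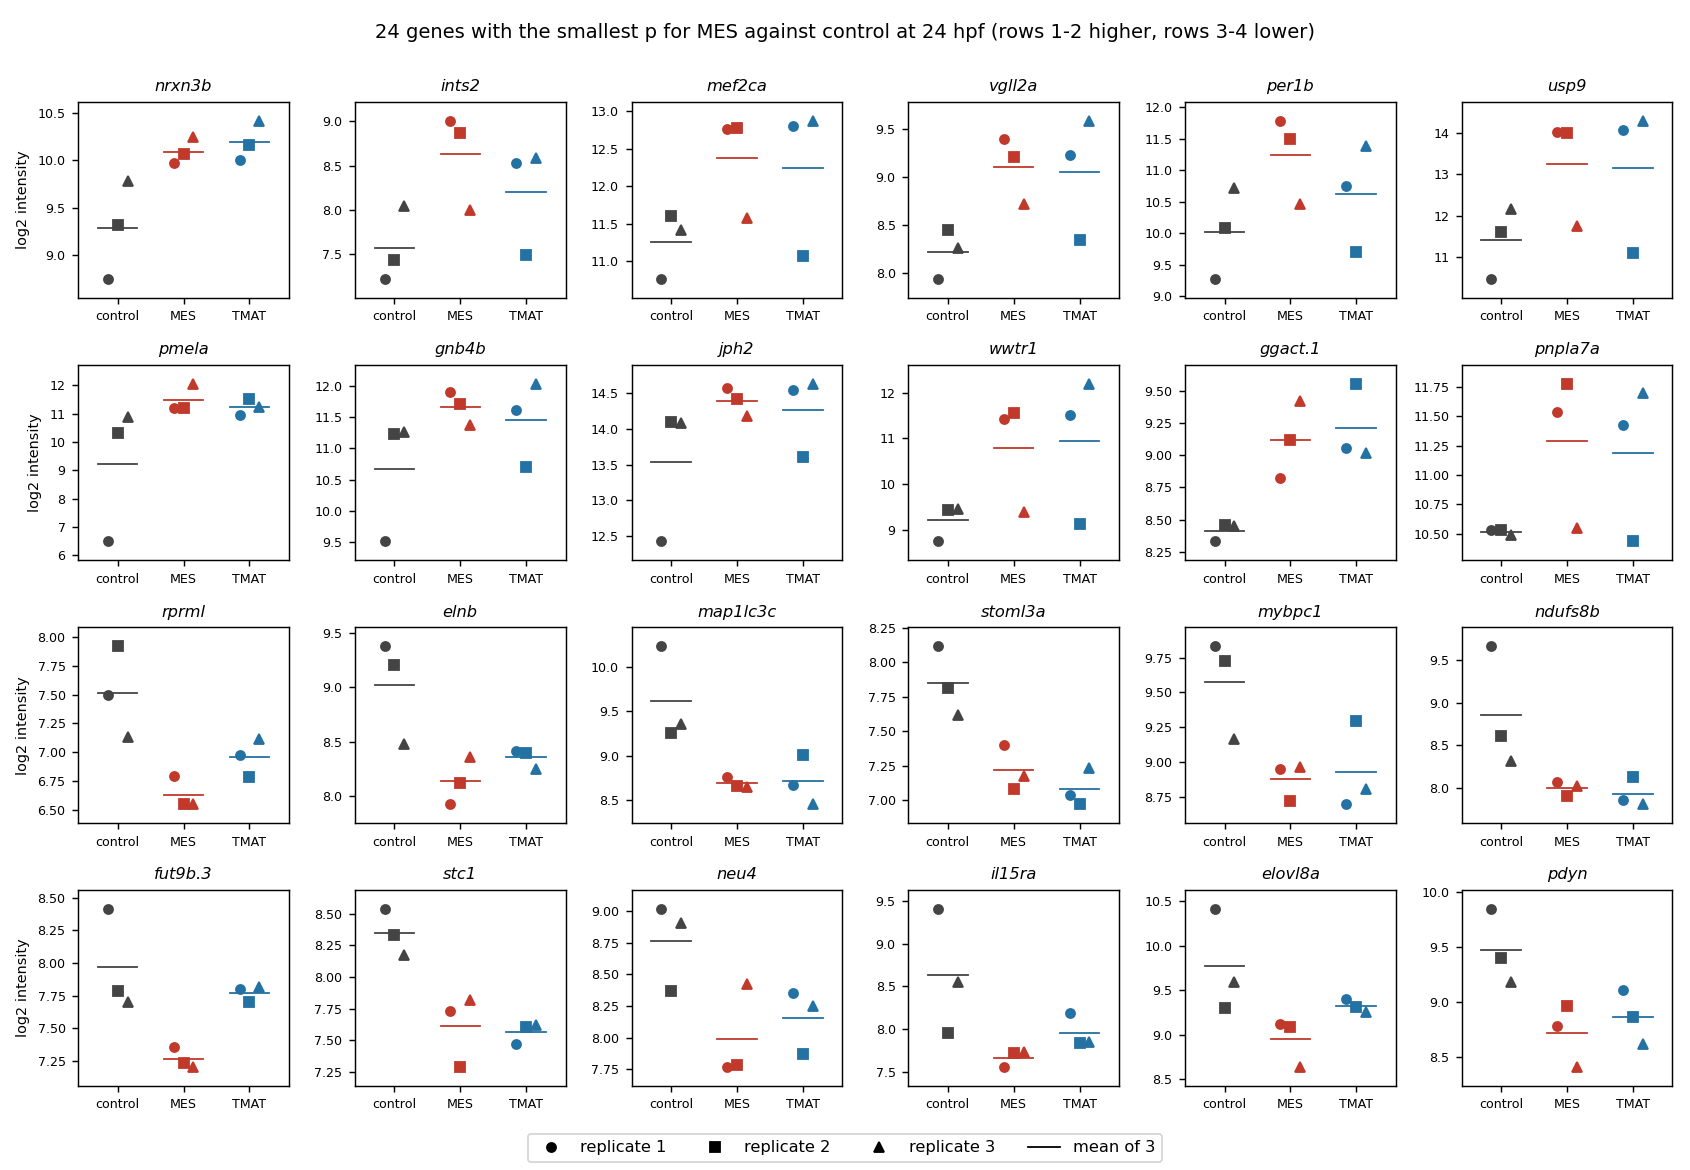
Log2 intensity of the 24 named genes with the smallest unadjusted p at 24 hpf, for each control, MES and TMAT array (symbols mark replicates 1 to 3, lines the mean of 3, each panel with its own scale that does not start at 0). The values of controls and MES arrays did not overlap for 7 of the 12 higher and 11 of the 12 lower genes. Those counts follow in part from the choice by p, and over all features the shares were 1.66% and 5.83%. MES array 3 lay with the controls for usp9, mef2ca and wwtr1.

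The genes with the largest differences among those that did not overlap added 4 names. The Mediator subunit gene med24 read 10.12 on control array 1 and 13.86 to 13.87 on the other 5 arrays, so its difference of 1.25 was 0.00 without that array. The type I interferon gene ifnphi1 read 10.05, 9.20 and 8.82 in controls and 8.66, 8.21 and 8.06 with MES particles (-1.05 ± 0.46, and -0.70 without control array 1). The apoptosis inhibitor gene faimb differed by -0.98 ± 0.40 and the ghrelin gene ghrl, a gut hormone precursor, by -0.92 ± 0.40. Both were nearer to 0 without control array 1, at -0.59 and -0.69.

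Of the 30 lists of genes, 29 had at least 3 measured members and 0 members of any list were called, as for all features. Without control array 1 the median of 20 of the 29 lists lay nearer to 0 and 7 medians changed sign. Without MES array 3 the median of 25 lists lay farther from 0 and 2 changed sign. When each of the 6 arrays was left out in turn, the medians of 14 lists took both signs, 6 stayed positive and 9 stayed negative, and this left-out range is given with each list. A median beyond 0.2 in either direction was found for 13 lists with all arrays and for 4 without control array 1. For comparison the median over all features was -0.0825 with all arrays and -0.0414 without control array 1. Members of the lists all had a gene symbol. Over the 2466 features with an informative symbol the median was -0.0028, or -0.0519 without control array 1. Of these, 45 higher and 127 lower features did not overlap.

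Genes of metal handling were higher in 7 of 7 cases, with a median difference of 0.414, and 0 of 7 had groups that did not overlap. Iron regulatory protein 1 (aco1), an iron sensor and cytosolic aconitase, read 10.46, 12.99 and 13.01 in controls and 13.93, 13.43 and 12.85 with MES particles (1.25 ± 0.55). Control arrays 2 and 3 lay within the MES range, and without control array 1 the difference was 0.40. The zinc importer gene slc39a10 read 9.87, 13.02 and 13.20 in controls and 13.79, 13.65 and 11.33 with MES particles, and its difference of 0.90 ± 0.82 became -0.19 without control array 1. The copper pump gene atp7a differed by 0.87 ± 0.58, or 0.48 without that array, and the transferrin receptor gene tfr1b by 0.41 ± 0.48, or -0.32. The list's median without control array 1 was -0.0412, with 2 of 7 members higher, and its left-out range reached 0.783 (without control array 2).

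The 15 genes of oxidative stress and glutathione had a median of 0.168, with 9 of 15 higher, and without control array 1 the median was 0.189 with 12 of 15 higher. The left-out range was -0.14 (without control array 2) to 0.213 (without control array 3). The haem oxygenase gene hmox1b, which breaks down haem, read 9.28, 8.34 and 8.97 in controls and 8.97, 9.10 and 9.95 with MES particles (0.48 ± 0.29, overlapping). The haem-sensing repressor gene bach1a differed by 0.71 ± 0.38, and the sestrin gene sesn2, a stress-induced regulator of nutrient signalling, by -0.51 ± 0.25. Sestrin 2 values did not overlap, at 11.84 to 12.30 in controls and 11.33 to 11.63 with MES particles. It was the 1 lower member of the 15 without overlap, and 2 members were higher without overlap. Of all features 5.83% and 1.66% did not overlap in these directions.

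Genes of protein damage showed small medians. Of 13 chaperone and heat shock genes 8 were higher (median 0.0563, left-out range -0.0629 without control array 1 to 0.0889 without MES array 2). The co-chaperone gene bag3 read 12.07, 14.00 and 14.10 in controls and 13.77 to 13.84 with MES particles, which gave 0.43 ± 0.37 with all arrays and -0.23 without control array 1. The small heat shock gene hspb2 differed by -0.33 ± 0.21, or -0.10 without that array. All 5 genes of endoplasmic reticulum stress were higher (median 0.153), and the left-out range was 0.00993 (without control array 1) to 0.342 (without control array 2). Among them the pseudokinase gene trib3 went from 0.47 ± 0.31 to 0.01, and the transcription factor gene ddit3 from 0.15 ± 0.28 to -0.17.

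Of 8 genes of myeloid cells and inflammation 6 were lower (median -0.353, left-out range -0.469 to -0.131, the latter without control array 1). Of the 8, 2 had values that did not overlap and were lower, against 5.83% of all features. The myeloid transcription factor gene spi1b read 11.86, 11.35 and 11.50 in controls and 11.32, 11.03 and 11.19 with MES particles (-0.39 ± 0.25, and -0.24 without control array 1). The cytokine gene il1b read 9.07, 8.55 and 8.71 in controls and 7.96, 8.39 and 8.54 with MES particles (-0.48 ± 0.29). Both sets lay apart by less than 0.1, and the adjusted p of each was 0.787 or above. The receptor gene csf1ra of the same list had a smaller unadjusted p than either and lay the other way. It was 1 of the 2 higher members, at 0.40 ± 0.24 (0.50 without control array 1). The complement gene c3a.2 differed by 0.50 ± 0.38. Of 10 genes of apoptosis and p53 4 were higher (median -0.162, left-out range -0.309 to 0.0285), with the BH3-only gene pmaip1 at -0.56 ± 0.43. Detoxification genes had 9 of 20 higher (median -0.0699, left-out range -0.174 to -0.0116), and the glucuronosyltransferase gene ugt5a1 differed by -0.69 ± 0.35, or -0.24 without control array 1.

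Clock genes were higher in 5 of 5 cases with a median of 0.465. The negative-limb gene per1b read 9.28, 10.08 and 10.72 in controls and 11.78, 11.49 and 10.46 with MES particles (1.22 ± 0.48). Its relative per3 read 8.48, 8.71 and 9.01 in controls and 9.99, 9.58 and 8.81 with MES particles (0.73 ± 0.41). MES array 3 lay within the control range for both, as it lay below it for the nuclear receptor gene rorca (8.78 against 9.25 to 9.62). The median of the list was 0.421 without control array 1, with 3 of 5 higher, and its left-out range was 0.199 (without MES array 1) to 1 (without MES array 3). The hour of collection of each pool is not given in the labels, and its part in these values was not tested.

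Axon guidance and neural adhesion genes were higher in 20 of 25 cases (median 0.264). The semaphorin receptor gene plxna3 read 10.41, 12.21 and 12.32 in controls and 13.55, 13.04 and 11.82 with MES particles (1.16 ± 0.59), and the co-receptor gene nrp2a differed by 0.94 ± 0.53. The ligand gene sema6d lay the other way, at -0.51 ± 0.26. Leaving out control array 1 put the list's median at 0.0269, with 13 of 25 higher, and plxna3 and nrp2a at 0.54 and 0.27. Leaving out MES array 3 put the median at 0.517, the other end of its left-out range. Synaptic genes were evenly divided, 15 of 30 higher with a median of 0.00509 (left-out range -0.0639 to 0.116), the glutamate receptor gene gria1a at 0.58 ± 0.36 (0.17 without control array 1) and the dopamine receptor gene drd2a at -0.55 ± 0.25.

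Genes of neuropeptides and the secretory granule were lower in 8 of 12 cases, with a median of -0.27, or -0.234 without control array 1. The left-out range of this list was -0.393 (without control array 3) to -0.146 (without control array 2). All 5 members that did not overlap were lower (5.83% of all features did not overlap in that direction), and the list was dim, with a median control intensity of 8.98. The gene adcyap1a, which encodes the brain and pituitary peptide PACAP, read 10.33, 9.58 and 9.09 in controls and 8.86, 8.74 and 8.94 with MES particles (-0.82 ± 0.31). Its difference was -0.49 without control array 1. The parathyroid hormone gene pth1b, from the list of epidermis and ionocytes, read 11.64, 11.06 and 10.52 against 10.31, 10.46 and 10.04 (-0.80 ± 0.36, and -0.52 without control array 1). The ammonia transporter gene rhcga of ionocytes differed by -0.65 ± 0.32 with no overlap, and the claudin gene cldn5a of the same list by 0.53 ± 0.27. That list had a median of -0.237, with 9 of 14 lower, and a left-out range of -0.491 (without MES array 3) to -0.0723 (without MES array 2).

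Among tissues, 4 of 5 pigment cell genes were higher (median 0.629, left-out range 0.0973 without control array 1 to 0.921 without control array 2). Besides pmela, the purine synthesis gene gart read 12.53, 14.57 and 14.40 in controls and 14.74, 14.29 and 14.54 with MES particles, and its difference was 0.69 with and 0.04 without control array 1. The melanosome exchanger gene slc24a5 differed by 0.63 ± 0.41, and by 0.21 without that array.

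Lens genes were lower in 20 of 22 cases (median -0.249), and the lens membrane gene lim2.3 read 13.29, 12.80 and 12.22 in controls and 12.01 to 12.05 with MES particles (-0.73 ± 0.29, and -0.47 without control array 1). The crystallin gene crygm2d13 differed by -0.51 ± 0.33, or -0.10 without control array 1, with 12.09 on control array 1 and 10.61 to 11.08 on the other 5 arrays. The lens median was -0.032 without control array 1, with 10 of 22 higher, and -0.448 without MES array 3, the ends of its left-out range. The 6 photoreceptor and retina genes had a median of -0.465, with a left-out range of -0.631 to -0.221, the latter without control array 1. The rod factor gene nrl (-0.59 ± 0.27) and the retinoschisin gene rs1a (-0.85 ± 0.40) did not overlap between the groups, and without that array they differed by -0.23 and -0.47.

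Skeletal muscle genes had 7 of 19 higher (median -0.0914, left-out range -0.125 to -0.0406), and they held mef2ca and vgll2a among the higher and mybpc1 among the lower. Sarcalumenin (srl), a calcium-binding protein of the sarcoplasmic reticulum, read 10.38 on control array 1 and 13.25 to 13.67 on the other 5 arrays, so that 1.1 ± 0.55 became 0.09 without it. The replication helicase gene mcm5 (11.47 on control array 1, 14.43 to 15.03 on the others), the mitophagy receptor gene bnip3la (9.66, and 12.28 to 12.96) and the erythropoietin receptor gene epor (9.03, and 10.89 to 11.38) had the same arrangement. Their differences of 1.19, 1.02 and 0.67 were 0.12, 0.05 and -0.07 without control array 1.

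Matrix and notochord genes included long laminin chains of basement membranes. The gene lamb1a read 9.51, 10.87 and 11.92 in controls and 12.80, 12.64 and 10.26 with MES particles (1.13 ± 0.67, and 0.51 without control array 1), and lama1 read 10.83, 10.81 and 11.45 against 12.75, 12.18 and 10.84 (0.90 ± 0.63). In both, MES arrays 1 and 2 were above every control and array 3 lay within the control range. Fibulin 1 (fbln1) differed by 0.67 ± 0.35, or 0.39 without control array 1, and the mesenchymal factor twist2 by -0.69 ± 0.36. The matrix list had 8 of 15 higher with a median of 0.0869 (left-out range -0.119 to 0.164). The notochord list had 4 of 5 higher with a median of 0.429, which was 0.111 without control array 1 and 0.915 without MES array 3, the ends of its left-out range.

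Mitochondrial genes were lower in 19 of 21 cases (median -0.301), with the import chaperone gene timm10 at 14.84, 14.12 and 13.73 in controls and 13.51, 13.89 and 13.76 with MES particles (-0.52 ± 0.35). The mitochondrial ribosomal gene mrpl13 differed by -0.42 ± 0.27. With control array 1 left out these were -0.21 and -0.24, the list median was -0.0301 and 8 of 21 were higher, while without control array 3 the median was -0.446, the other end of its left-out range. Sterol and lipid genes had 8 of 20 higher (median -0.0688, left-out range -0.111 to 0.0692), among them the sterol regulator gene srebf2 (0.78 ± 0.52) and the isoprenoid gene idi1, whose values of 10.31 to 11.07 in controls and 11.17 to 11.44 with MES particles did not overlap (0.49 ± 0.27). Without control array 1 srebf2 and idi1 differed by 0.19 and 0.25. Endocytosis genes had 8 of 10 higher (median 0.184, left-out range 0.0973 to 0.336), with the dynamin gene dnm2b at 0.47 ± 0.33, or 0.16 without control array 1. Autophagy genes had 7 of 11 higher (median 0.0254, left-out range -0.0956 to 0.0626), with atg16l1, a gene of autophagosome formation, at 0.67 ± 0.45, or 0.30 without control array 1. The early patterning list had 6 of 11 higher (median 0.119, left-out range -0.0057 to 0.245). It held the cell adhesion gene prtga (0.54 ± 0.35, and 0.10 without control array 1) and the Hairy-related repressor gene her3 (-0.36 ± 0.27, and -0.0031 without that array). The remaining medians were 0.247 for 5 heart genes (left-out range -0.0834 to 0.426), 0.08 for 7 genes of red blood cells and haem (-0.0311 to 0.152) and -0.2 for 4 complement genes (-0.275 to -0.0355). They were 0.015 for 10 cell cycle genes (-0.0209 to 0.0455), -0.0638 for 6 hypoxia and glycolysis genes (-0.165 to 0.178) and -0.247 for 3 egg coat genes (-0.55 to 0.0561), and no hatching gland gene of the list was measured.

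**Figure D4:**
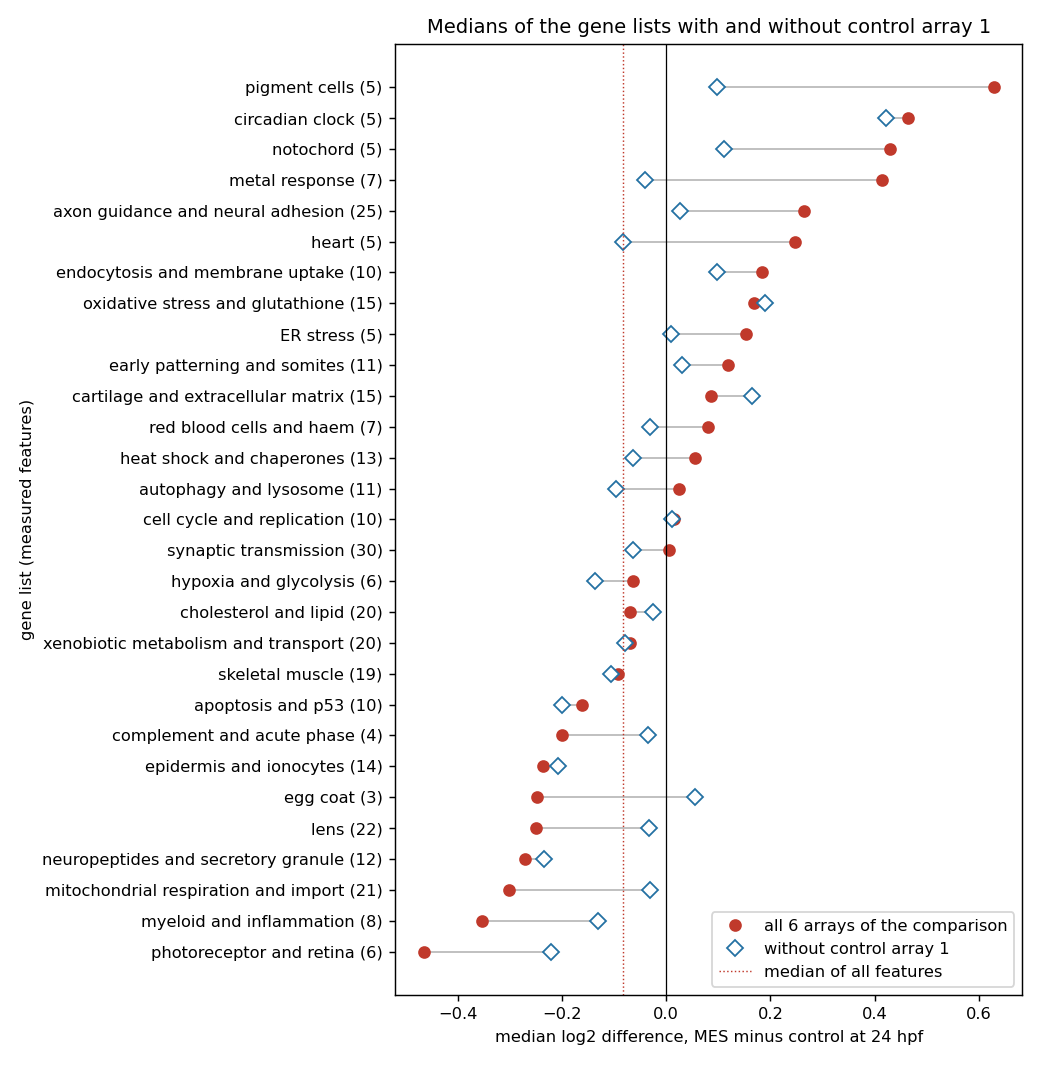
Median log2 difference (MES minus control at 24 hpf) of each gene list with all 6 arrays (filled circles) and without control array 1 (open diamonds), with the number of measured features in brackets and the median of all features (-0.0825) as a dotted line. Features with an informative symbol, from which the lists come, had a median of -0.0028. Pigment, metal response, lens and mitochondrial medians move to between -0.0412 and 0.0973 without that array, and the clock median is 0.421 without it, though it ran from 0.199 to 1 when other arrays were left out.

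The TMAT arrays at 24 hpf were compared with the same 3 controls, so the 2 comparisons share control array 1 and are not independent, and the particle doses differed. TMAT particles against control also called 0 features (0% called, limma, smallest adjusted p = 0.654), with 2242 at an unadjusted p below 0.05 (6.04%). The direct comparison of TMAT with MES particles does not use the controls in its differences. Its standard errors do use them, through the spread pooled over all groups of the series. The median standard deviation of a feature at 24 hpf was 0.481 among controls, 0.254 among MES and 0.333 among TMAT arrays. The comparison called 0 features (0%), with 37 at an unadjusted p below 0.05 (0.0997%) and 100 by the ordinary statistic. These counts are therefore not independent of control array 1. The median size of a difference between the particles was 0.118. A p that misses the threshold does not show that the particles act alike, and a typical feature's 95% interval was again 0.694 to either side. For the 12 higher genes the TMAT difference from control was 0.59 to 2.01, and for the 12 lower genes -0.94 to -0.19. TMAT array 2 resembled MES array 3 at single genes as well, for example usp9 (11.10 and 11.75, with 13.99 to 14.29 on the other 4 exposed arrays) and wwtr1 (9.12 and 9.38, with 11.41 to 12.20 on the others).

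At 48 hpf the same dose of MES particles, now given from 6 to 48 hpf, called 2138 features (5.76% of 37105, 1437 higher and 701 lower). The ordinary statistic called 21, so this count depends on limma's shared variance. Control array 2 at 48 hpf had a mean correlation of 0.881 with the other arrays of that age, and no 48 hpf array was left out for this count. For the 12 genes that were higher at 24 hpf the differences at 48 hpf ran from -1.48 to 2.27 and 1 was called, and for the 12 lower genes from -0.88 to 0.62 with 0 called. The called gene was vgll2a, at 0.89 at 24 hpf and -1.48 ± 0.34 at 48 hpf (adjusted p = 0.0271), and pmela differed by 2.27 at 48 hpf (adjusted p = 0.142). The egg coat genes zp2.3 and zp3.2 were lower than in controls at 24 hpf, at -0.34 ± 0.28 and -0.25 ± 0.39 (-0.12 and 0.0561 without control array 1). At 48 hpf they were higher than in controls by 1.2 and 1.65 (limma, adjusted p = 0.0277 and 0.0288). Between the ages the control mean fell from 11.21 to 10.07 for zp2.3 and from 10.41 to 8.92 for zp3.2. The MES mean went from 10.87 to 11.26 and from 10.16 to 10.57. Axon guidance genes had a median of -0.514 at 48 hpf, metal response genes -0.452 and clock genes -0.323, beside -0.233 for all features with an informative symbol, of which 709 of 2466 were positive at that age. Their 24 hpf medians of 0.264, 0.414 and 0.465 stand beside -0.0028 for the same features, and that of metal response was -0.0412 without control array 1. The change of a feature's effect between the ages was tested directly as an interaction. It called 1 feature (0.0027% of those tested), with 5960 at an unadjusted p below 0.05 (16.1%). None of the named genes above passed that test, so their differences at the ages are given side by side only.

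**Figure D5:**
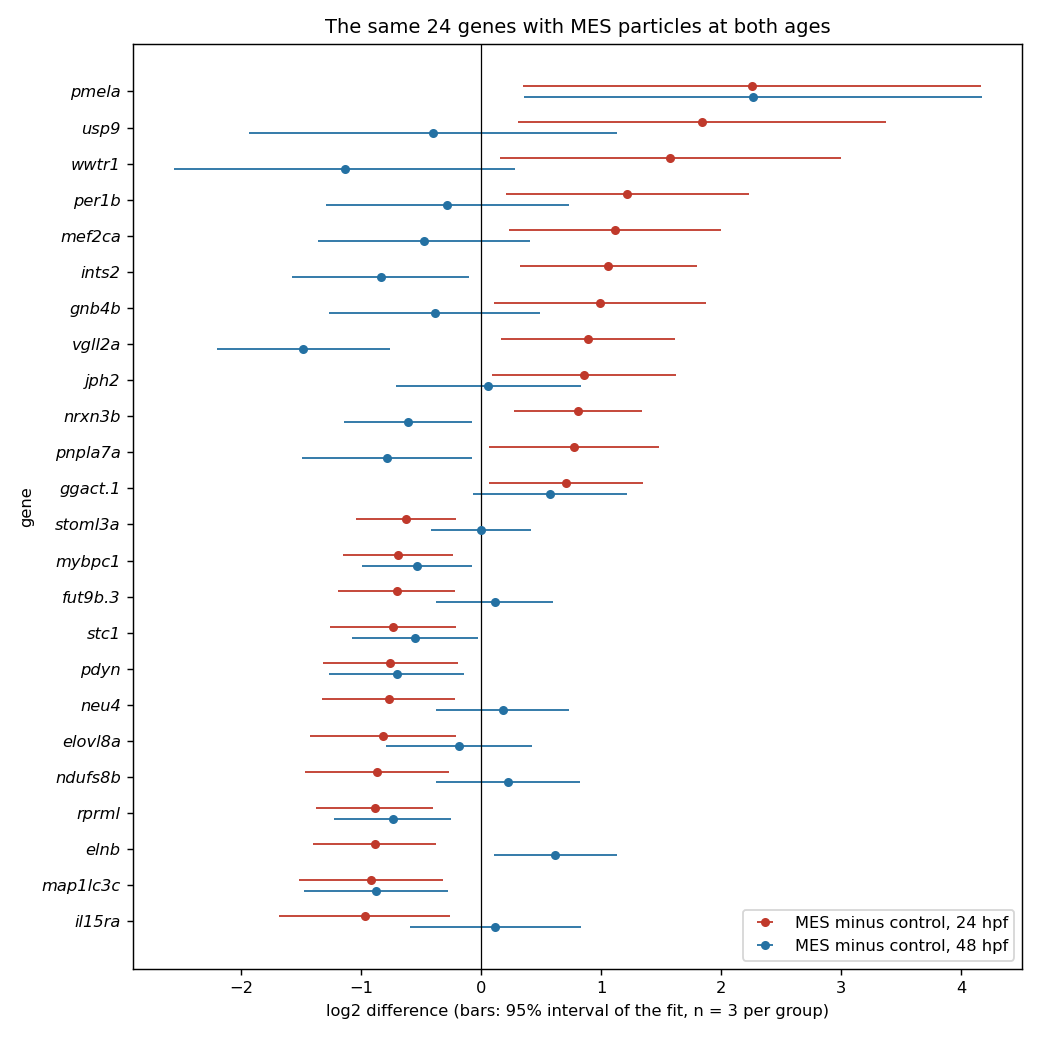
Log2 difference between MES particles and controls of the same age for the 24 named genes, at 24 hpf and at 48 hpf (points are means of 3 arrays against 3, bars the 95% interval of the limma fit). The genes were chosen by their 24 hpf values, and at 48 hpf vgll2a alone of the 24 was called, at -1.48.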

How the data were processed

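RNA from pools of zebrafish embryos was hybridised to one-colour (Cy3) NimbleGen arrays. Every array has its own deposited table of linear feature intensity, made with RMA per the submitters' processing notes, a procedure that corrects background, equalises quantiles between arrays and summarises probes. Its version, and whether both ages were normalized together, are not given in the sources used here. A deposited combined table was not the main source, because 2 of its 18 columns equalled the table of their own sample and 16 that of another (tolerance 0.001).

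Intensities were converted to log2 without a pseudocount, the random-probe feature was set aside, and one limma 3.58.1 fit in R 4.3.3 held the 6 group means of 18 arrays (12 residual and 3.85 prior degrees of freedom). P-values were two-sided and adjusted over all 37105 features, per contrast, by the Benjamini-Hochberg method, with 0.05 as threshold. The fit was checked on simulated data with independent noise of equal spread in all groups. The arrays differed from that setting, with a median standard deviation of 0.481 among 24 hpf controls and 0.254 among MES arrays. The check therefore does not cover an array that stands apart. Array precision is limited by the number of arrays.

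Of 3051 features with RefSeq identifiers, 2659 matched a current symbol and 392 did not. Genome positions and probe sequences were not used here. Genes with an informative symbol were named by rule: the 12 smallest unadjusted p in each direction where none was called, the 6 largest differences each way without overlap, and up to 4 members per list by p. From the last 2 kinds the text gives a part, picked after values were seen. The members and the 30 lists (2111 symbols, 334 features measured) were chosen with earlier results of these data known. Whether replicate numbers pair the arrays is not known. Same-numbered MES and control arrays deviated from their group means with correlations of -0.517, 0.0729 and -0.441. Deviations from a group mean cancel out within the group, so these values cannot exclude a pairing.

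Alternatives were fits on only the 6 arrays compared or the 9 arrays at 24 hpf, single arrays left out, and the replicate block. Other normalizations and filters, array weights, and the combined table as labelled were also run. Leaving out control array 1 and MES array 3 together, and cyclic loess, were added after seeing the data.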

Additional observations from a re-analysis of the deposited data

Results flagged for a closer look

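A single feature differed in its MES effect between the ages by the interaction test. This was OTTDART00000029927, an identifier of an old annotation with no current symbol and 11 probes. At 24 hpf it read 11.75, 12.06 and 12.21 in controls and 12.35, 12.74 and 12.56 with MES particles, so the exposed arrays lay just above the controls (0.54 ± 0.26, unadjusted p = 0.0565 in the limma fit). At 48 hpf it read 11.95, 11.93 and 11.70 in controls and 9.78, 9.26 and 9.80 with MES particles, a difference of -2.25 (limma, adjusted p = 0.00895). The change between the ages was -2.79 ± 0.37 (95% interval -3.58 to -2.0, limma, adjusted p = 0.0487). It was called under 6 of 18 alternatives, which include the main fit at a threshold of 0.1. Its limma adjusted p over the 18 ran from 5.44e-05 to 0.972, the latter with the combined table as labelled. Leaving out any of control arrays 1 and 3 or the 3 MES arrays at 24 hpf ended the call, with adjusted p from 0.112 to 0.287 and a change of -2.89 to -2.66. Without control array 2 the call held, at an adjusted p of 0.0194.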

How the results depend on the processing

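The count of features called for MES particles at 24 hpf was 0 under all 20 alternatives run, but not all of these could test it. They gave 455 to 4805 features at an unadjusted p below 0.05 and a smallest adjusted p of 0.0538 to 1 (limma). The 455 and the 0.0538 came from the combined table as labelled. Only 1 of its compared 24 hpf columns held its own sample, so it did not compare MES arrays with controls. A threshold of 0.1 on the main fit could call nothing, since the smallest adjusted p there was 0.787. Leaving out 1 array moved the number at the unadjusted level to 497 without control array 1 and to 4805 without control array 3, 4313 without control array 2 and 2690 without MES array 3. It was 635 without MES array 2 and 731 without MES array 1. TMAT against MES also stayed at 0 under every alternative run for it. TMAT against control was 0 except with array weights, which called 316 (280 higher, 36 lower). The count of 1 for the change between ages ranged from 0 to 1800 when 1 array at 24 hpf was left out, with 1800 (1547 higher, 253 lower) without control array 2. It was 13294 with array weights (5835 higher, 7459 lower). Those weights were 213, 0.125 and 0.204 for control arrays 1 to 3 at 48 hpf, so the control mean at that age rested almost wholly on 1 array. The 316 calls for TMAT used the same set of weights, with 0.0766, 0.407 and 1.93 for control arrays 1 to 3 at 24 hpf. The count for the change between ages was 0 with median centring, a robust intensity trend, cyclic loess, the combined table as labelled, or control array 1 and MES array 3 left out together. With the replicate block it was 0 (smallest adjusted p = 0.229). For MES at 24 hpf the block gave 0 called and 1326 at the unadjusted level. Since it is not known whether the numbers pair the arrays, no more is read from it.

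Of 1422 values of 79 named genes under alternatives, 25 turned in direction. With the combined table as labelled, rprml was 0.24, mybpc1 0.11, elovl8a 0.24, pdyn 0.13, lim2.3 0.36, crygm2d13 0.77, nrl 0.0889, rs1a 0.78, hspb2 0.30, rhcga 0.15 and prtga -0.55. Its columns differ from the main source in which array carries which label. Only 1 of the compared 24 hpf columns held its own sample, so these values are not differences between MES and control arrays. They say nothing on how those genes depend on processing. Leaving out control array 1, epor was -0.0691, slc39a10 -0.19, tfr1b -0.32, bag3 -0.23, ddit3 -0.17 and zp3.2 0.0561. Over single arrays left out these genes ranged to 1.06, 1.69, 0.78, 0.78, 0.39 and -0.56 in the same order. With control array 1 and MES array 3 both left out, tfr1b was -0.0528, bag3 -0.21, trib3 -0.0708 and ddit3 -0.10. With array weights, tfr1b was -0.0591, bag3 -0.18, ddit3 -0.0105 and her3 0.0014. The cause of the turns outside the combined table was not tested.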
